A study of Mus musculus with 13 samples.

Results

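miR-192, miR-194 and miR-802 are microRNAs of liver and gut, and their 7 mature products were followed in mouse plasma. The rows were chosen by name from the raw count table, 7 of the 1907 mature miRNAs it lists, and they are mmu-miR-192-5p, mmu-miR-192-3p, mmu-miR-194-5p, mmu-miR-194-1-3p, mmu-miR-194-2-3p, mmu-miR-802-5p and mmu-miR-802-3p, written without the species prefix from here on. miR-192-5p and miR-194-5p were abundant in all 13 libraries. The other 5 held between 7 and 108 counts each over the whole series and are given as counts with their detection limits.

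Plasma small RNA was sequenced from 13 male mice, with 1 library per mouse, to compare dystrophic with healthy mice and Givinostat with its vehicle. The 3 naive wt mice were C57BL/10J and received no treatment. The other 10 mice were mdx mice (C57BL10ScSn-Dmdmdx/J), which lack dystrophin and go through repeated rounds of muscle damage and repair. Of these, 3 were untreated (naive mdx) and 4 were gavaged with the vehicle, 0.5% methylcellulose. The other 3 were gavaged with 37.5 mg/kg Givinostat, a histone deacetylase (HDAC) inhibitor. Vehicle and Givinostat were given on 5 days a week for 15 weeks, and plasma of all groups was taken after that period. The mice were 7 to 8 weeks old when bought, all groups went through the same functional tests, and blood was drawn from the retro-orbital plexus into EDTA. The strain field of every sample reads C57BL/10J, so the genotypes here follow the sample titles and the treatment description. No wt mouse was gavaged, so the vehicle and Givinostat groups differ from naive wt mice in both genotype and gavage.

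A miRNA is cut from an RNA hairpin that gives a 5p and a 3p arm, and usually only 1 arm is loaded into Argonaute, where bases 2 to 8, the seed, pair with target mRNAs. miR-192 and miR-194 are made from shared primary transcripts in hepatocytes, intestinal epithelium and kidney tubules. miR-802 is a miRNA of liver, gut and pancreas, known for rising in the obese liver. Because they enter blood from epithelial organs, miR-192 and the hepatocyte miRNA miR-122 are widely used as plasma markers of liver.

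The mature sequences are printed because their likeness decides what a short read can tell apart. All 7 matched RefSeq (GRCm38.p6), and each is written 5′ to 3′ with its seed in capitals; miR-215-5p is added as the seed relative of miR-192-5p.
miR-192-5p: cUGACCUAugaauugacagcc
miR-215-5p: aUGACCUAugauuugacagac
miR-192-3p: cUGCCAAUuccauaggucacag
miR-194-5p: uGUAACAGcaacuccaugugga
miR-194-1-3p: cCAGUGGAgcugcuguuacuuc
miR-194-2-3p: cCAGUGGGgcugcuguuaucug
miR-802-5p: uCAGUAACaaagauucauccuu
miR-802-3p: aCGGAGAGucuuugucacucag

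miR-192-5p and miR-215-5p share the seed UGACCUA, and no other mature mouse miRNA in RefSeq carries it. With positions counted from 1 at the 5′ end, they differ at 3 of 21 bases, C1A, A12U and C20A from miR-192-5p to miR-215-5p. The 3p arms of the miR-194 hairpins differ at 4 of 22 bases, A8G, C19U, U20C and C22G from miR-194-1-3p to miR-194-2-3p. The A8G difference falls in the seed, so these 3p arms do not share one.

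The genes lie in 3 places of the GRCm38 genome, all on the plus strand. On chromosome 19, Mir194-2 (chr19:6264643-6264728) lies 115 bases before Mir192 (chr19:6264844-6264932), and neither overlaps another annotated gene. On chromosome 1, Mir194-1 (chr1:185313319-185313385) lies 195 bases before Mir215 (chr1:185313581-185313692). There Mir194-1 is in an intron and Mir215 in an exon of the non-coding gene 2010103J01Rik, and both are opposite an intron of Iars2, which encodes a mitochondrial isoleucyl-tRNA synthetase. Mir802 stands alone at chr16:93369720-93369816. The mature positions are chr19:6264857-6264877 for miR-192-5p, chr19:6264900-6264921 for miR-192-3p, chr1:185313360-185313381 for miR-194-1-3p, chr19:6264694-6264715 for miR-194-2-3p, chr16:93369737-93369758 for miR-802-5p and chr16:93369775-93369796 for miR-802-3p. miR-194-5p has 2 origins, chr1:185313325-185313346 and chr19:6264658-6264679. The miR-194 hairpins show why its reads cannot be given to either locus, with the mature arms in capitals and the first arm the same in both.
Mir194-1: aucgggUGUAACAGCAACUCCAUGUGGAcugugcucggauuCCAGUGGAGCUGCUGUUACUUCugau
Mir194-2: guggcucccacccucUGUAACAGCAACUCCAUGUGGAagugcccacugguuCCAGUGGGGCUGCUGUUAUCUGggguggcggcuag

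The libraries held 1167161 to 2899315 miRNA counts. No pair of libraries of the same group was a repeat of another, since the closest of the 15 pairs differed by 104.5 times the sampling variance (chi-square per degree of freedom). Levels are counts per 1000000 counts of the library (CPM) scaled by TMM, edgeR's trimmed mean of M-values, unless a share of the library total is named. The libraries differed widely in composition. Muscle miRNAs (the 4 rows miR-1a-3p, miR-133a-3p, miR-133b-3p and miR-206-3p, summed) made 0.702% to 2.08% of counts in naive wt mice, 28.2% to 39.6% in naive mdx, 35.4% to 42.5% in vehicle mice and 37.9% to 46.6% in Givinostat mice. The log2 ratio of miR-451a, of red blood cells, to miR-23a-3p also separated the genotypes, at 0.01 ± 0.11 (SD, n = 3) in naive wt mice, -2.20 ± 0.44 (n = 3) in naive mdx, -1.91 ± 0.22 (n = 4) with vehicle and -1.03 ± 0.44 (n = 3) with Givinostat. The 3 red blood cell miRNAs miR-451a, miR-144-3p and miR-144-5p were all detected, and summed to 0.372% to 0.776% of counts in naive wt mice, 0.213% to 0.352% in naive mdx, 0.228% to 0.342% in vehicle mice and 0.301% to 0.639% in Givinostat mice. The miR-451a to miR-23a-3p ratio also did not overlap between Givinostat mice (-1.54 to -0.69) and vehicle mice (-2.13 to -1.67). Fits without the muscle miRNAs and with the red blood cell ratio as covariate are given beside the results on genotype.

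miR-192-5p, the guide strand of miR-192, was lower in plasma of mdx mice than of wt mice. It stood at 10278, 6452 and 8157 CPM in the naive wt mice 86, 89 and 95. In the naive mdx mice 36, 37 and 39 it was at 2835, 3441 and 5082 CPM. In the vehicle mice 40, 41, 42 and 43 the level was 2180, 4561, 3925 and 2419 CPM. In the Givinostat mice 31, 34 and 35 it was 2385, 3044 and 3858 CPM. Every one of the 10 mdx mice was below the lowest wt mouse on this scale, and the 3 mdx groups overlapped each other. The share of all tested miRNAs with this separation of 10 from 3 mice was not counted, here or for the other members. Group by group, 25.0% to 27.7% of tested miRNAs had every mdx mouse below every wt mouse. The group means, in descending order, were 8296 ± 1917 CPM (SD, n = 3) in naive wt, 3786 ± 1163 (n = 3) in naive mdx, 3271 ± 1156 (n = 4) with vehicle and 3096 ± 738 (n = 3) with Givinostat.

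miR-194-5p, the guide strand shared by both miR-194 hairpins, showed a wider separation of the genotypes. The naive wt mice were close together at 3928, 3802 and 3484 CPM. The naive mdx mice were at 1084, 1248 and 1643 CPM, the vehicle mice at 873, 1732, 1537 and 658 CPM, and the Givinostat mice at 992, 1241 and 1846 CPM. The highest mdx mouse of all was thus well below the lowest wt mouse. The means were 3738 ± 229 CPM (SD, n = 3) in naive wt mice, 1360 ± 439 (n = 3) with Givinostat, 1325 ± 287 (n = 3) in naive mdx and 1200.3 ± 515 (n = 4) with vehicle. Only the step from naive wt mice to the next group exceeded the spread between mice, since the 3 mdx groups overlapped.

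**Figure D1:**
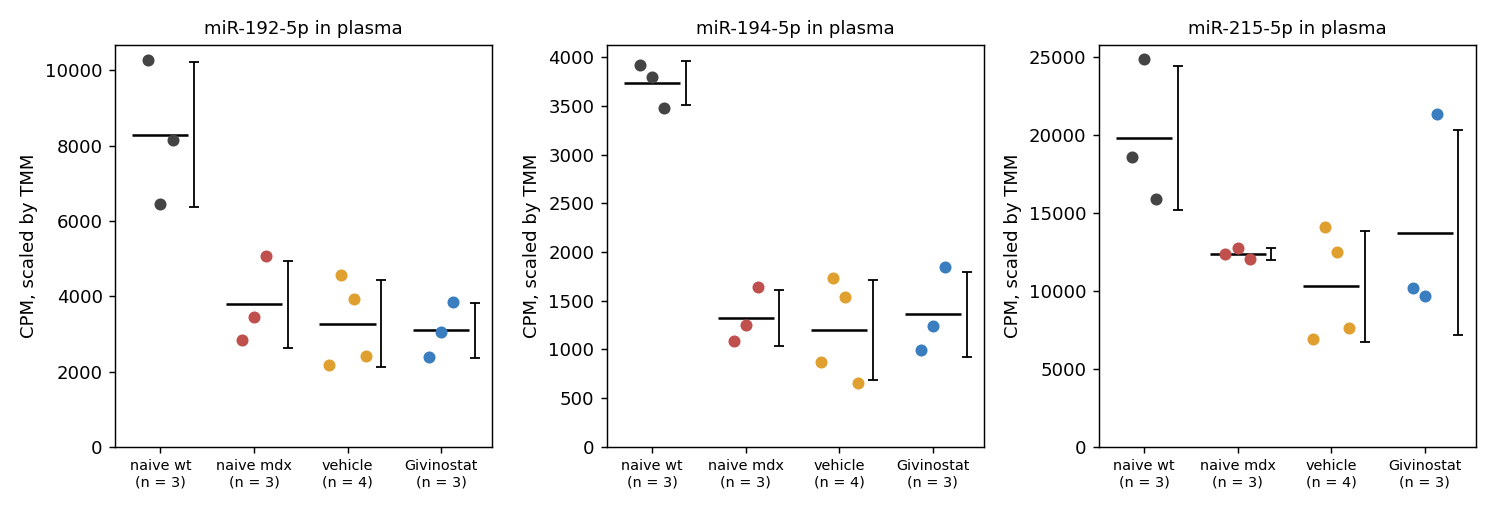
Plasma levels of miR-192-5p, miR-194-5p and miR-215-5p in CPM scaled by TMM (y axes, starting at 0) in naive wt, naive mdx, vehicle and Givinostat mice; points are mice, lines group means and bars beside them ± 1 SD. For miR-192-5p and miR-194-5p every mdx mouse lies below every wt mouse, while for miR-215-5p 1 Givinostat mouse reaches 21354 CPM, within the wt range.

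In naive mdx against naive wt mice, both members that passed the count filter were called lower by edgeR's quasi-likelihood test (adjusted p under 0.05 over 368 tested miRNAs), where 43.5% of all tested miRNAs were called in either direction and 16.6% as lower. The log2 fold change of miR-192-5p was -1.13 (SE 0.32; edgeR, adjusted p = 0.00933), 2.19-fold lower with a 95% interval of 1.37 to 3.50. That of miR-194-5p was -1.50 (SE 0.34; edgeR, adjusted p = 0.00207), 2.82-fold lower with an interval of 1.72 to 4.63. The median log2 fold change of all tested miRNAs was 0.035. Levels of naive mdx and wt mice did not overlap for either, which held for 57.6% of tested miRNAs in either direction and for 27.7% with naive mdx lower. In plasma, fewer cells releasing a miRNA and less of it released per cell cannot be told apart.

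The call for miR-192-5p depended on how the libraries were scaled, and that for miR-194-5p did not. As a share of all counts, miR-192-5p made 0.598% to 0.791% in naive wt and 0.324% to 0.601% in naive mdx mice, so wt mouse 95 and mdx mouse 39 were level. The shares of miR-194-5p still did not overlap, at 0.255% to 0.466% in naive wt and 0.117% to 0.194% in naive mdx. With library totals in place of TMM, the median of all tested miRNAs moved from 0.035 to 0.429, and miR-192-5p was at -0.72 (SE 0.34, adjusted p = 0.10 from edgeR); over all its alternatives the adjusted p of this comparison ran from 0.00265 to 0.914. On counts without miR-122-5p and the 4 muscle miRNAs, miR-192-5p was at -1.13 (SE 0.35, adjusted p = 0.0155) and miR-194-5p at -1.49 (SE 0.37, adjusted p = 0.00362), both still called. When the miR-451a to miR-23a-3p ratio entered the fit as a covariate, miR-192-5p was at -0.93 (SE 0.92, adjusted p = 0.914) and miR-194-5p at -1.66 (SE 0.98, adjusted p = 0.740), neither called; over its alternatives the adjusted p of miR-194-5p ran from 1.16e-06 to 0.740. With this covariate 1 of all 368 tested miRNAs was called higher and 0 lower, against 160 called without it. The ratio separates wt from mdx mice completely, so its part and that of genotype cannot be told apart.

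The other mdx groups, set against the same 3 wt mice, gave values of similar size. With vehicle, where 47.3% of tested miRNAs were called, 23.1% as lower, and 25.0% had every vehicle mouse below every wt mouse, miR-192-5p was at -1.34 (SE 0.29, adjusted p = 0.00141 from edgeR) and miR-194-5p at -1.64 (SE 0.31, adjusted p = 0.000461). With Givinostat, where 34.2% were called, 11.7% as lower, and 25.3% had every Givinostat mouse below every wt mouse, miR-192-5p was at -1.42 (SE 0.32, adjusted p = 0.00310) and miR-194-5p at -1.46 (SE 0.34, adjusted p = 0.00352). Since these comparisons share their wt mice, they do not add independent evidence to the first.

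Givinostat did not detectably change either miRNA against vehicle. miR-192-5p differed by -0.08 (SE 0.30, adjusted p = 0.990 from edgeR), with a 95% interval from -0.71 to 0.55. miR-194-5p differed by 0.18 (SE 0.31, adjusted p = 0.930), with an interval from -0.47 to 0.83. Changes in either direction within these limits are left possible by 3 against 4 mice. In this comparison 0.272% of tested miRNAs, 1 of 368, was called, and 25 had an unadjusted p under 0.05. Vehicle against naive mdx gave -0.21 for miR-192-5p (SE 0.29, adjusted p = 0.828, interval -0.83 to 0.41) and -0.14 for miR-194-5p (SE 0.31, adjusted p = 0.907, interval -0.80 to 0.51). edgeR called 0 of 368 miRNAs there, 0% of those tested, with 17 at an unadjusted p under 0.05, and DESeq2 also called 0.

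**Figure D2:**
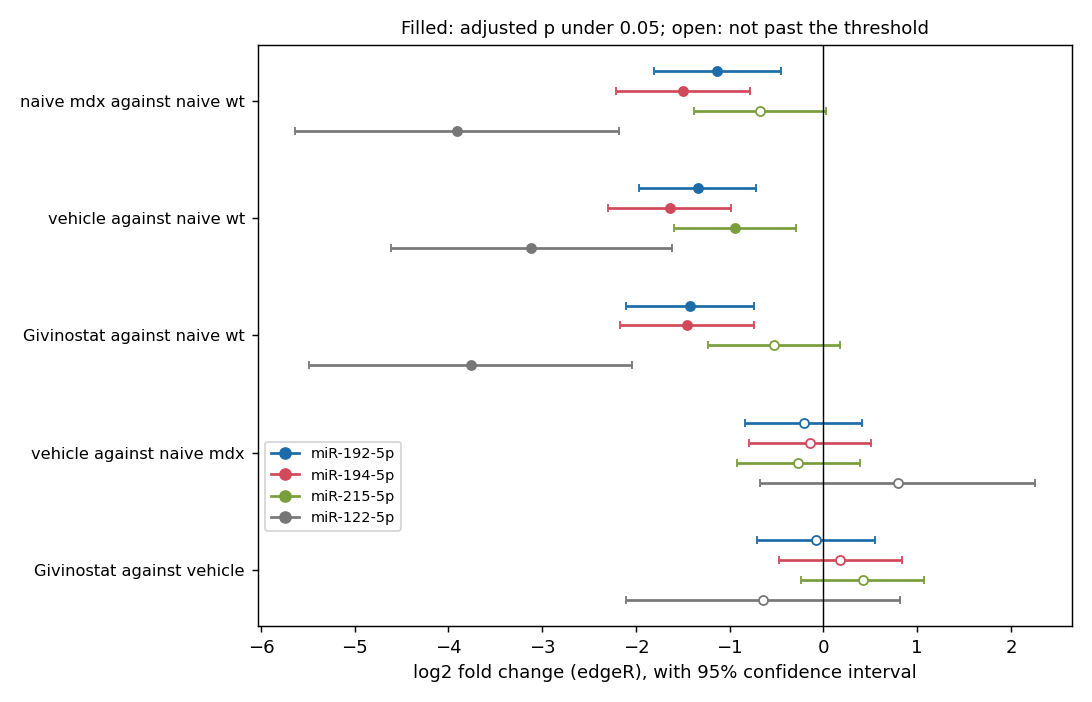
Log2 fold changes from edgeR (x axis) with 95% confidence intervals for miR-192-5p, miR-194-5p, miR-215-5p and the hepatocyte miRNA miR-122-5p in 5 comparisons; filled points passed an adjusted p under 0.05. miR-192-5p and miR-194-5p lie between -1.64 and -1.13 against naive wt mice and near 0 among the mdx groups, and miR-122-5p lies at -3.91 in naive mdx against naive wt.

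miR-215-5p, which shares the seed of miR-192-5p and the chromosome 1 cluster of miR-194-1, was the more abundant carrier of that seed. It had 279771 counts over the series beside 94499 of miR-192-5p and 38976 of miR-194-5p. In CPM it stood at 19810 ± 4604 (SD, n = 3) in naive wt mice, 12380.5 ± 386 (n = 3) in naive mdx, 10290.5 ± 3560 (n = 4) with vehicle and 13744 ± 6596 (n = 3) with Givinostat. Naive mdx mice, at 12340, 12785 and 12017 CPM, were all below the naive wt mice, at 18611, 24894 and 15924 CPM, but the difference of -0.68 (SE 0.33, adjusted p = 0.103 from edgeR) did not pass. It passed with upper-quartile factors (-0.89, adjusted p = 0.0476) and with DESeq2 on these groups alone (-0.70, adjusted p = 0.0372), and over all alternatives the adjusted p ran from 0.0372 to 0.634. In vehicle against naive wt it was called, at -0.94 (SE 0.31, adjusted p = 0.0199), where the call was lost without vehicle mouse 40 or 43 or wt mouse 89 (adjusted p = 0.123, 0.112 and 0.127) and the adjusted p ran from 0.0112 to 0.369 over the alternatives. With Givinostat it was at -0.53 (SE 0.33, adjusted p = 0.227); without Givinostat mouse 35 this became -1.03 (adjusted p = 0.0301), the lowest of the alternatives, whose adjusted p reached 0.596. Its other arm, miR-215-3p, was called lower in naive mdx mice (-0.97, SE 0.34, adjusted p = 0.0294 from edgeR), though its levels overlapped those of naive wt mice. Against the same wt mice it was also called lower with vehicle (-1.36, SE 0.32, adjusted p = 0.00211 from edgeR) and with Givinostat (-1.38, SE 0.34, adjusted p = 0.00552), without overlap. Against naive wt mice, the arms of this hairpin thus differed in their calls both in naive mdx mice and with Givinostat.

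Within a mouse, count ratios need no scaling between libraries. There were 0.153 to 0.219 counts of miR-194-5p for each of miR-215-5p in naive wt mice and 0.0865 to 0.137 in the 10 mdx mice, so this ratio was lower in every mdx mouse. The ratio of miR-192-5p to miR-215-5p overlapped, at 0.259 to 0.552 in naive wt and 0.181 to 0.423 in the mdx mice. These miR-215-5p ratios were chosen after the levels were known and carry no test. How many ratios of other miRNA pairs separate the mice in this way was not counted.

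The ratio of miR-192-5p to miR-194-5p sets Mir192 against its cluster partner together with the copy on chromosome 1, since miR-194-5p comes from both loci. Naive wt mice had 2.62, 1.70 and 2.34 counts of miR-192-5p per count of miR-194-5p, and naive mdx mice had 2.61, 2.76 and 3.09. They were 2.50, 2.63, 2.55 and 3.67 with vehicle, and 2.40, 2.45 and 2.09 with Givinostat. miR-192-5p was thus the higher of the pair in every mouse. On the log2 scale the difference of naive mdx from naive wt was 0.37 (exact two-sided permutation test, p = 0.2, adjusted over 9 ratio comparisons p = 0.257), within the spread. All 3 Givinostat mice were below all 4 vehicle mice, by -0.28 on the log2 scale. Its exact permutation p of 0.0571 is the smallest that 3 against 4 mice can give, and its adjusted p was 0.171. For single miRNAs, the levels of 7.61% of those tested did not overlap in that comparison. The share over ratios of other miRNA pairs was not counted. The log2 ratio of vehicle mouse 43 was 1.88, far above the other vehicle mice, and without any single mouse of these groups the difference ran from -0.33 to -0.15.

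Relative to miR-122-5p, both miRNAs were higher in mdx plasma, since miR-122-5p was lower by more. For miR-192-5p to miR-122-5p the log2 ratio was -6.27, -5.57 and -6.76 in naive wt mice, against -1.82, -3.25 and -4.13 in naive mdx mice. With vehicle it was -3.77, -3.68, -5.59 and -3.52, and with Givinostat -3.41, -4.03 and -4.20. Only vehicle mouse 42 reached the wt range. The naive mdx mice averaged 3.13 above naive wt, 8.76-fold, with the smallest exact permutation p that 3 against 3 mice allow (p = 0.1, adjusted 0.18). The 10 mdx mice together averaged 2.46 above the wt mice (exact permutation p = 0.0140, adjusted 0.0629). For miR-194-5p to miR-122-5p these differences were 2.76 (exact permutation p = 0.1, adjusted 0.18) and 2.18 (exact permutation p = 0.0140, adjusted 0.0629). None passed after adjustment. Here and below, the 10 mdx mice pool untreated, vehicle and Givinostat mice, so their difference from wt mice mixes genotype with gavage and drug. The unadjusted p over 10 mdx mice rose to 0.0606 without wt mouse 86 or 95, the difference then being 2.42 and 2.18 for miR-192-5p and 2.01 and 1.85 for miR-194-5p. Givinostat against vehicle differed by 0.26 for miR-192-5p (exact permutation p = 0.914) and 0.54 for miR-194-5p (exact permutation p = 0.457). Without vehicle mouse 42 the first of these turned to -0.22.

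**Figure D3:**
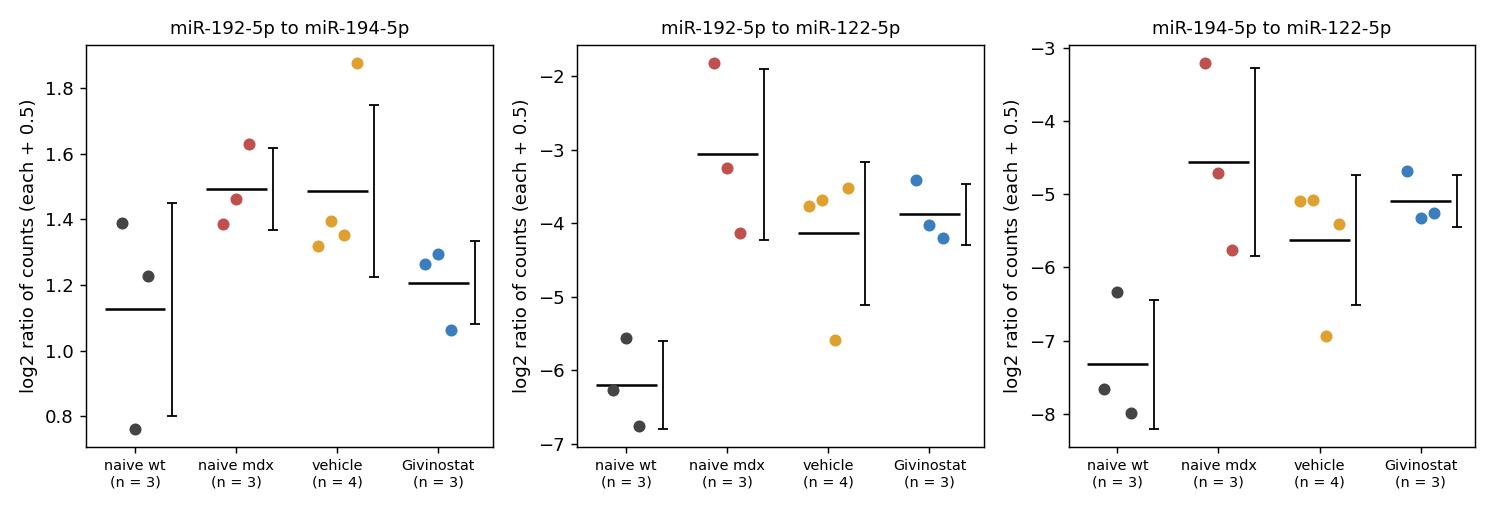
Log2 ratios of counts within each mouse (y axes, 0.5 added to each count) for miR-192-5p to miR-194-5p, miR-192-5p to miR-122-5p and miR-194-5p to miR-122-5p in the 4 groups; points are mice, lines means and bars ± 1 SD. The first ratio spans 0.76 to 1.88 over all mice, and in the others the wt mice and vehicle mouse 42, which lies within the wt range, are below the other 9 mdx mice.

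The passenger arms were close to the limit of detection. miR-192-3p had 7 counts beside the 94499 of miR-192-5p, so the 5p arm made 99.99% of the hairpin. The 1 count in naive wt mice was in mouse 95, the 2 in naive mdx in mouse 39, the 1 with vehicle in mouse 41, and the 3 with Givinostat in mice 31 (2 counts) and 34 (1 count). In the other 8 libraries it was at 0, which allows up to 1.43 to 2.57 CPM by library total (3 counts). Pooled over the group, it was at 0.155 CPM in naive wt mice (exact Poisson 95% interval 0.00393 to 0.865) and 0.473 CPM in naive mdx (0.0573 to 1.71), so no difference was detectable at this depth. Such intervals and limits cover counting error only, as reads carried no molecular identifiers.

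The 3p arms of miR-194 are the only products that tell its loci apart. miR-194-1-3p, from chromosome 1, had 108 counts in 12 libraries, and miR-194-2-3p, from chromosome 19, had 33 in 9. The chromosome 1 arm thus made 76.6% of the 141 3p counts (exact binomial 95% interval 68.7% to 83.3%), and there were 276 counts of miR-194-5p for each 3p count. miR-194-1-3p had 11, 30 and 20 counts in the naive wt mice, 10, 5 and 5 in naive mdx, 0, 7, 3 and 2 with vehicle, and 6, 3 and 6 with Givinostat. miR-194-2-3p had 6, 4 and 11 counts in the naive wt mice, 0, 1 and 2 in naive mdx, 0, 4, 1 and 3 with vehicle, and 0, 1 and 0 with Givinostat. A count of 0 allows up to 2.10 CPM in vehicle mouse 40, 2.57 in naive mdx mouse 36, and 2.09 and 2.17 in Givinostat mice 31 and 35.

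By library total, miR-194-1-3p was at 10.97 ± 8.51 CPM (SD, n = 3) in naive wt and 5.04 ± 3.06 (n = 3) in naive mdx mice, with overlapping values (exact permutation p = 0.3). The 10 mdx mice averaged 3.47 ± 2.39 CPM, 7.50 CPM below the wt mice (exact permutation p = 0.0490, adjusted over 15 comparisons 0.245). On this scale the difference rests on wt mouse 89 at 20.7 CPM; without it the difference was -2.61 CPM (exact permutation p = 0.212), and it also missed 0.05 without any of 10 other single libraries. Scaled by TMM, however, all 10 mdx mice (at most 6.26 CPM) were below the wt mice (6.97, 16.9 and 9.41 CPM), a difference of -7.88 CPM with the smallest exact permutation p that 10 against 3 mice allow (p = 0.00699). miR-194-2-3p was at 3.14 ± 0.57 CPM in naive wt and 0.650 ± 0.643 in naive mdx mice, which did not overlap (exact permutation p = 0.1, the smallest possible; adjusted 0.375). Over the 10 mdx mice it averaged 0.859 ± 1.05 CPM (exact permutation p = 0.0210, adjusted 0.157), and vehicle mouse 41 at 3.12 CPM reached the wt range. Without wt mouse 86, 89 or 95 the exact permutation p of this difference was 0.0606, 0.0606 and 0.0909. Pooled over the group, miR-194-2-3p was at 3.26 CPM (exact Poisson 95% interval 2.02 to 4.99) in naive wt mice, 0.710 (0.146 to 2.07) in naive mdx, 1.42 (0.612 to 2.80) with vehicle and 0.239 (0.00605 to 1.33) with Givinostat.

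miR-802-5p had at least 1 count in each of the 13 mice, 60 in all, but fewer than the limit of 3 counts in 4 mdx mice. It had 8, 9 and 17 counts in the naive wt mice, 5, 1 and 3 in naive mdx, 2, 3, 3 and 4 with vehicle, and 1, 1 and 3 with Givinostat. By library total this is 3.82, 6.22 and 5.86 CPM in naive wt mice and 4.28, 0.665 and 1.93 in naive mdx. The remaining mdx mice lay between 0.696 and 2.85 CPM, so naive mdx mouse 36 was the only mdx mouse in the wt range on this scale. Scaled by TMM, mouse 36 was at 3.13 CPM, below the lowest wt mouse at 5.07 CPM, and the 10 mdx mice did not overlap the wt mice (exact permutation p = 0.00699, the smallest possible). The 10 mdx mice averaged 1.90 ± 1.13 CPM (SD) and the 3 wt mice 5.30 ± 1.30 (exact permutation p = 0.0140, adjusted over 15 comparisons 0.157). Without wt mouse 89 or 95 that difference was -2.94 and -3.12 CPM, with an exact permutation p of 0.0606 in both cases. Naive mdx mice alone averaged 2.29 ± 1.84 CPM (exact permutation p = 0.2). With Givinostat it was at 1.20 ± 0.841 CPM (n = 3) and with vehicle at 2.14 ± 0.610 (n = 4; exact permutation p = 0.171). At 5 and 12 counts, the pooled intervals of 0.388 to 2.79 and 1.10 to 3.72 CPM overlapped.

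miR-802-3p had 8 counts, of which 4 were in naive wt mouse 95. The 5p arm made 88.2% of the 68 counts of this hairpin (exact binomial 95% interval 78.1% to 94.8%). The remaining counts of miR-802-3p were single counts in naive wt mouse 86, naive mdx mouse 39, vehicle mouse 41 and Givinostat mouse 31. Pooled, it was at 0.777 CPM (exact Poisson 95% interval 0.252 to 1.81) in naive wt and 0.237 (0.00599 to 1.32) in naive mdx mice, and no difference was detectable.

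**Figure D4:**
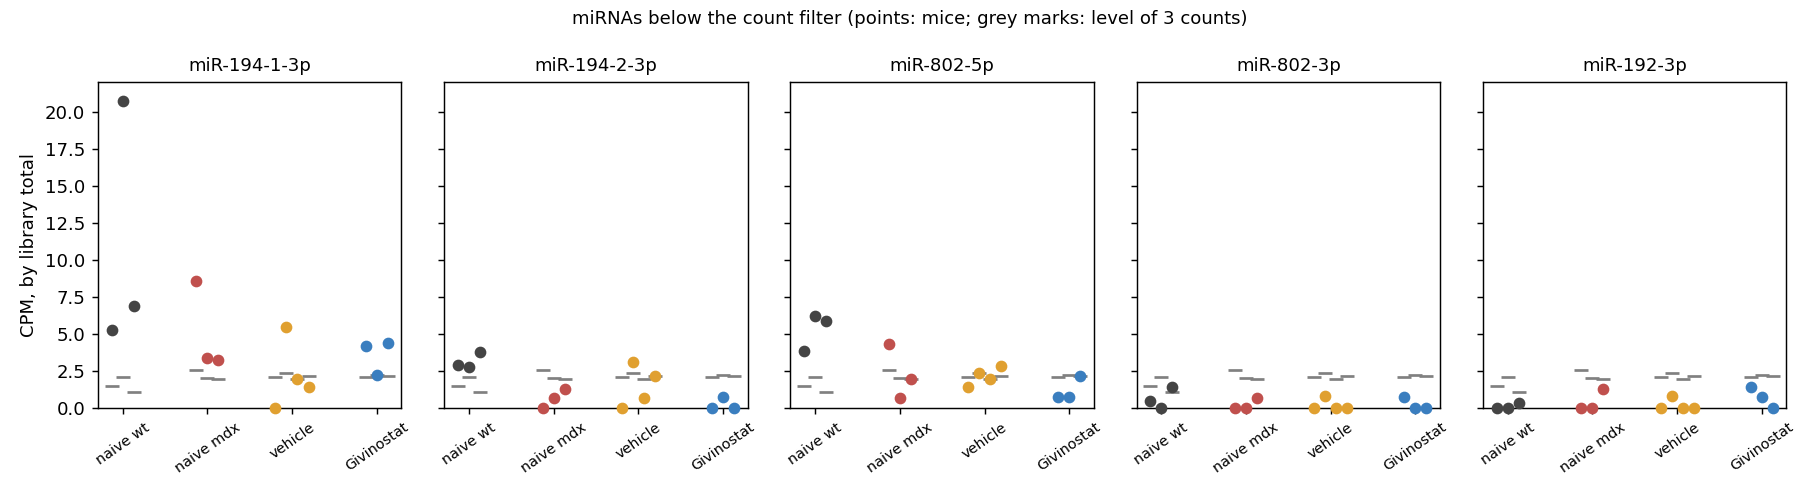
CPM by library total (shared y axis) of the 5 miRNAs below the count filter in the 4 groups; points are mice and grey marks the level of 3 counts in that mouse's library. miR-194-1-3p and miR-802-5p are above their marks in all 3 naive wt mice, miR-802-5p is above its mark in only 2 of the 10 mdx mice, and the points of miR-192-3p and miR-802-3p lie below the marks in all but 1 library.

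None of the 15 comparisons of these 5 miRNAs passed after adjustment, by library total or scaled by TMM. A fit with no filter on counts called 3 of these 5 lower in naive mdx than in naive wt mice. Of all 1203 miRNAs in that fit, 68 were called lower and 112 higher. These were miR-802-5p at -1.74 (SE 0.63, adjusted p = 0.0441 from edgeR), miR-194-1-3p at -1.45 (SE 0.52, adjusted p = 0.0443) and miR-194-2-3p at -2.52 (SE 0.86, adjusted p = 0.0320). These calls rest on 9, 20 and 3 counts in naive mdx mice. With vehicle against naive wt, the same fit called miR-194-1-3p but not miR-802-5p (adjusted p = 0.0760 from edgeR) or miR-194-2-3p (0.234). There 72 of 1203 miRNAs were called lower and 105 higher. With Givinostat against naive wt, it called miR-802-5p and miR-194-2-3p but not miR-194-1-3p (adjusted p = 0.0582 from edgeR), with 33 called lower and 90 higher.

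A list of 18 other miRNAs of liver, gut, pancreas and kidney gives the setting; it was chosen with earlier results of these data known. Of its 15 tested members, 10 were called lower and 0 higher in naive mdx against naive wt mice, where 16.6% of all tested miRNAs were called lower, with a median log2 fold change of -0.932 beside 0.035 for all tested miRNAs. miR-122-5p and miR-122-3p, of hepatocytes, were lowest at -3.91 (SE 0.82) and -4.25 (SE 0.80). miR-148a-3p, which is abundant in liver, was at -1.84 and its other arm miR-148a-5p at -1.40. The miRNAs of epithelia, gut included, followed at -1.20 for miR-141-3p, -1.07 for miR-200c-3p, -0.93 for miR-429-3p, -0.88 for miR-200b-3p and -0.87 for miR-200a-3p, all called. Beside miR-215-5p, the tested members not called were miR-101b-3p at -0.70, miR-204-5p at -0.62, miR-375-3p at -0.14 and miR-101a-3p at 0.30. Of these, miR-101b-3p and miR-101a-3p were listed as abundant in liver like miR-148a, so the liver miRNAs were not all called lower. miR-192-5p and miR-194-5p lie between the hepatocyte miRNAs and miR-101a-3p. Against the same wt mice, 12 of the 15 were called lower with vehicle (median -1.277; 23.1% of all tested miRNAs) and 10 with Givinostat (median -0.957; 11.7% of all tested). In Givinostat against vehicle and in vehicle against naive mdx edgeR called none of the 15, with medians of 0.186 and -0.278; DESeq2 was not counted over this list.

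The miRNAs whose pattern was most like that of each guide strand were found by the standard deviation over the 13 mice of the log2 count ratio, among the 308 tested miRNAs that averaged 10 CPM or more. For miR-192-5p the nearest was miR-194-5p (SD 0.262), followed by miR-146a-5p (0.348), miR-101b-3p (0.361), miR-200b-3p (0.380) and miR-200b-5p (0.386), where the median of all candidates was 0.819. For miR-194-5p the nearest was miR-192-5p (0.262), then miR-148a-3p (0.385), miR-429-3p (0.445), miR-215-5p (0.447) and miR-146a-5p (0.448), with a median of 0.920. So miR-192-5p and miR-194-5p were each other's nearest. miR-122-5p stood at rank 254 for miR-192-5p (SD 1.37) and 237 for miR-194-5p (SD 1.30). The 13 mice include both genotypes, so this likeness holds the genotype difference as well as variation within groups.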

How the data were processed

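Plasma small RNA of 13 mice was sequenced (NEBNext small RNA kit, Illumina sequencing). Per the study's methods and the submitters' processing notes, which list Bowtie 1.0.0, cutadapt 1.4.2 and bcl2fastq 1.37.0 (the methods name Trimmomatic for trimming), reads of miRNA length were mapped to GRCm38 without mismatch, and the authors deposited raw counts per mature miRNA (miRBase 21), summed over isomiRs. The other deposited table holds log2 values, found here to be log2 counts scaled to a common total per library and missing for counts of 3 or fewer; it served as an alternative.

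The members and lists were chosen with earlier results of these data known. All 7 members are named, with a context list, 5 miRNAs most alike, and red blood cell and muscle markers. Counts were fitted with edgeR 4.0.16 (R 4.3.3; TMM, filterByExpr at a minimum count of 10, quasi-likelihood test, 4 group means, 13 libraries), with Benjamini-Hochberg adjustment over 368 miRNAs. Ratios (0.5 added to each count) and the 5 members below the filter were tested by exact two-sided permutation (scipy 1.17.1), adjusted over 9 and 15 comparisons. Shares and pooled counts carry exact 95% intervals, and the limit of detection is 3 counts of the library total, 1.03 to 2.57 CPM. The script was tested on simulated data. Alternatives used DESeq2 1.42.0 and limma 3.58.1, other scalings and filters, and each library left out. Labels give no batch; mice are the replicates. Sequences and positions are from RefSeq GRCm38.p6 and overlaps from GENCODE annotation of the same build.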

Additional observations from a re-analysis of the deposited data

Results flagged for a closer look

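Only the vehicle group, with 4 mice, was large enough for a check of single mice. In it the extreme mouse's gap to the nearest other is compared with the group's range (Dixon's test at 95%). Of 13 group values, 4 passed. The nominal rate of about 1 in 20 holds for continuous, independent values. Counts near 0 and values that share a miRNA do not meet this, so no excess of flags can be read from it. miR-192-3p and miR-802-3p each stood at 0.735 CPM (scaled by TMM) in vehicle mouse 41 and at 0 in the other 3, which is a single count each. There the gap equals the range, so both were bound to pass. The log2 ratio of miR-192-5p to miR-194-5p was 1.88 in vehicle mouse 43, beside 1.32, 1.40 and 1.35 in the other vehicle mice. The log2 ratio of miR-192-5p to miR-122-5p was -5.59 in vehicle mouse 42, beside -3.77 to -3.52 in the others. The causes were not tested.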

How the results depend on the processing

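No paired analysis was possible because the groups share no animal numbers. Of the members called in naive mdx against naive wt mice, 2 in the report, there was 1 with library totals or with limma on the deposited log2 values (pseudocount 1 or 5), 5 with no filter, 4 without miR-122-5p (387 miRNAs tested) and 0 with the red blood cell ratio as covariate. In that comparison miR-192-5p was at -0.72 (adjusted p = 0.10) with library totals and at -0.76 with limma (adjusted p = 0.0832 and 0.0839), and with the covariate at -0.93 (adjusted p = 0.914), where miR-194-5p was at -1.66 (adjusted p = 0.740). The split of all calls was 99 higher and 61 lower with TMM, 82 and 96 with upper-quartile factors (median -0.200), 118 and 23 with library totals, and 115 and 19 with limma (pseudocount 1). It was 112 and 68 of 1203 with no filter, 98 and 71 of 387 without miR-122-5p, and 1 and 0 of 368 with the covariate. Of the 5 low members, 0 passed by permutation with either scaling, where 3 against 3 or 4 mice could not pass, and 3 passed with edgeR and no filter. Against naive wt, vehicle gave 4 members without miR-122-5p and 0 with the covariate (-1.16 for miR-192-5p, -1.78 for miR-194-5p), and Givinostat 4 with no filter, 4 without miR-122-5p and 0 with the covariate (-1.32 and -1.54). All calls of these fits, higher and lower, were 88 and 100 of 387 and 2 and 0 of 368 for vehicle. For Givinostat they were 90 and 33 of 1203, 79 and 48 of 387, and 22 and 0 of 368. The causes were not tested. miR-194-5p in vehicle against naive mdx turned to 0.0027 without miR-122-5p and the muscle markers.

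With each library left out in turn, 2 to 3 members were called in each comparison with naive wt, and both guide strands stayed called: miR-192-5p from -1.41 to -0.92 and miR-194-5p from -1.70 to -1.33 in naive mdx (adjusted p at most 0.0483 and 0.0144). Uncalled differences changed sign: Givinostat against vehicle ran from -0.34 to 0.064 for miR-192-5p and -0.17 to 0.35 for miR-194-5p, and vehicle against naive mdx from -0.38 to 0.11 and -0.30 to 0.10. Further ranges were -0.22 to 0.47 (miR-192-5p to miR-122-5p, Givinostat against vehicle), 2.18 to 2.77 and 1.85 to 2.67 (miR-192-5p and miR-194-5p to miR-122-5p, all mdx mice), -0.11 to 0.62 (miR-215-5p, Givinostat against vehicle), -0.115 to 0.528 CPM (miR-192-3p, naive mdx against wt) and -0.195 to 0.232 CPM (miR-802-3p, Givinostat against vehicle). Leaving out single libraries for the low members, and all alternatives for miR-215-5p, were added after seeing the data. Depth limits the 5 low members, at 10 counts or fewer in every mdx library.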
